A study of Mus musculus with 6 samples.

Results

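The genes described here encode the extracellular and membrane part of the Wnt pathway: Wnt ligands, Frizzled receptors, the Lrp5 and Lrp6 co-receptors, the Lgr receptors of R-spondins, and the secreted antagonists of the Sfrp and Dkk families. The family was chosen with earlier results of these data known. Its genes were taken by symbol, from probe sets whose platform annotation gives exactly 1 symbol. The probe set with the highest mean signal stood for each gene. This gave 42 genes of the 19938 measured: 19 Wnt ligands, 10 Frizzled receptors, 2 Lrp co-receptors, 3 Lgr receptors, 4 Sfrp genes and 4 Dkk genes. Only Wnt4 had more than 1 probe set.

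The cells were URE cells, a mouse leukaemia line. In the shHLX group they carried a short hairpin directed at Hlx, the gene of a homeobox transcription factor, and in the shControl group one directed at luciferase. Both hairpins were delivered in the lentiviral vector pSIH1-H1-copGFP, and in both groups GFP-positive cells were sorted and 10 ng of total RNA was amplified before hybridisation to 3 arrays per group. URE is a single cell line, and no source used here gives the number of Hlx hairpin sequences or of separate transductions. The p-values therefore cover the spread among these 6 arrays, which may be technical.

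Wnt ligands are secreted, lipid-modified proteins that bind a Frizzled receptor, and in the canonical branch Lrp5 or Lrp6 as well, which stabilises beta-catenin and lets it act with TCF/LEF factors in the nucleus. Sfrp proteins bind Wnts outside the cell, Dkk1 blocks the Lrp co-receptors, and R-spondins acting through Lgr4, Lgr5 or Lgr6 keep the ubiquitin ligases Znrf3 and Rnf43 from removing Frizzled receptors. In blood the pathway is known for its part in stem and progenitor cells and in leukaemia, and SFRP1 is known in humans as a gene often silenced by promoter methylation in leukaemia.

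Hlx itself, read as a check of the hairpin, had log2 signals of 10.08, 10.06 and 10.17 on the arrays labelled shHLX, against 10.21, 10.12 and 10.20 on the shControl arrays. Its groups overlapped, the difference of -0.07 was not called (limma adjusted p = 0.479, exact two-sided permutation p = 0.2), and every direction given here therefore rests on the labels. Of 15 myeloid marker genes, 13 had a mean signal above the median of all genes, while the probe sets of Ptprc, the pan-leukocyte gene, and Cd34 had signals of 5.86 to 6.15 on all 6 arrays. Of these 15 markers 4 (26.7%) were called by limma, where 6.18% of all genes were called. Their log2 differences were 2.14 for Cd33, -1.46 for Mpo, -0.73 for Kit and -0.42 for Csf2ra. The summed linear signal of the list was 56444 to 56930 on the arrays labelled shHLX and 59639 to 61073 on the shControl arrays, and its part in the results below was not tested. Array medians over the genes tested were 7.33 to 7.43 with the Hlx hairpin and 7.36 to 7.44 with the control hairpin, and the second principal component (18.1% of the variance) set shHLX 3 and shControl 1 apart from the other 4 arrays.

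Of the 42 genes, 4 passed the test between the groups (limma, Benjamini-Hochberg adjusted p under 0.05 over all 19938 genes). Sfrp1, Lgr5 and Fzd4 rose and Fzd3 fell on the arrays labelled shHLX. This is 9.52% of the members, where 6.18% of all genes tested were called (3.75% higher and 2.43% lower). At an unadjusted limma p under 0.05 there were 5 of the 42, a smaller share than the 19.4% of all genes. The 4 called members also made up all members that differed by more than 1.5-fold, again 9.52%, where 1.31% of all genes did. The family was chosen with earlier results of these data known, so these shares are not independent of that choice. Of the 40 members other than Fzd3 and Lgr5, 2 (5%) were called. These 2 were Sfrp1 and Fzd4, and Sfrp1 was also named in advance, so this share is not independent of the choice either. The median difference over the 42 was -0.04 on the log2 scale, and over all genes -0.01. The remaining 38 members lay within 0.2 of 0 on the log2 scale.

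Upstream sequences of Sfrp1, Fzd3 and Lgr5 are not shown. Those of 3 other called genes are printed so that the regions next to called Wnt receptor genes and the gene of an agonist can be read: those of Fzd4 and Ryk, a pair of Wnt receptor genes that rose, and that of Rspo1, the R-spondin gene that fell. Each is the 250 bases before the annotated start (RefSeq, GRCm38.p6), read 5′ to 3′ on the strand of the gene: Fzd4 at chr7:89404116-89404365, Ryk at chr9:102834670-102834919 and Rspo1 at chr4:124986180-124986429, all on the plus strand. Capitals mark TAAT on either strand, the core shared by many homeodomain factors.
Fzd4: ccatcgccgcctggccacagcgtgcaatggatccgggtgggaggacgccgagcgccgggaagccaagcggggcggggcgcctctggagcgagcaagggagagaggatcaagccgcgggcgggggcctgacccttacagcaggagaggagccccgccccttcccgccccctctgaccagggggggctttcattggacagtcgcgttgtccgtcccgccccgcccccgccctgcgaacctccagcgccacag
Ryk: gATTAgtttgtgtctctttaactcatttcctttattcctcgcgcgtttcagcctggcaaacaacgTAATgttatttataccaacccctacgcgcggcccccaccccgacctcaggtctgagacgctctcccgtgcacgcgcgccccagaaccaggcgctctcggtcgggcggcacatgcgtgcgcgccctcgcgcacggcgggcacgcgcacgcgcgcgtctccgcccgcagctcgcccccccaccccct
Rspo1: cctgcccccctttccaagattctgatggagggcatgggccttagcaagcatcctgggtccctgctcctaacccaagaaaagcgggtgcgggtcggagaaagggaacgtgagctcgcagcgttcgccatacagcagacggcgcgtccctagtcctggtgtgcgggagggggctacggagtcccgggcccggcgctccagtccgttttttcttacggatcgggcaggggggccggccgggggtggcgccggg

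The Ryk window held TAAT or its complement ATTA at 2 places, and the Fzd4 and Rspo1 windows held none. The other called genes with such a window, Camk2d, Cd44, Celsr2, Plcb1, Plcb2 and Tbl1x, also held none. Among 32851 promoter windows of the same length in the table, 54.9% held TAAT on either strand. ATCAAAG, a TCF/LEF core, lay on either strand in 3.21% of them and in none of the 3 windows shown. Of the 42 members 27 had at least 1 entry in the table, and of their 30 windows 9 held TAAT and 2 held ATCAAAG. The 3 windows shown had a GC content of 72.8% (Fzd4), 65.2% (Ryk) and 66.8% (Rspo1). A match here is a description of letters in a window and not of binding.

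Among the secreted antagonists, Sfrp1 had the largest difference of all 42 members. Its probe set (10570957, Entrez gene 20377) gave 10.18, 10.23 and 10.21 on the arrays labelled shHLX, against 8.04, 8.19 and 7.91 on the shControl arrays. The 3 shHLX arrays lay close together, and the nearest arrays of the groups were 1.99 log2 units apart. The means were 10.20 ± 0.0264 with the Hlx hairpin and 8.04 ± 0.139 with the control hairpin (SD, n = 3 each), which is 4.47-fold higher (limma's 95% interval 3.99 to 5, adjusted p = 2.97e-06). Among all genes this was rank 13 in size of rise. An exact two-sided permutation test gave p = 0.1, the smallest that 3 arrays against 3 can give.

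The other 3 Sfrp genes, which encode antagonists with the same Frizzled-like cysteine-rich domain, were not called. Their differences were 0.08 for Sfrp2, -0.11 for Sfrp4 and 0.11 for Sfrp5 on the log2 scale, each with overlapping groups. Frzb, a further gene of this family that has no Sfrp symbol in mouse, differed by 0.08 (limma adjusted p = 0.594). The difference between Sfrp1 and its relatives was not itself tested.

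None of the 4 Dkk genes was called by limma, with or without variance moderation. Dkk1, the best known blocker of Lrp5 and Lrp6, had the lowest unadjusted p of the uncalled members (0.0359, limma adjusted p = 0.219). It gave 6.65, 6.75 and 6.47 with the Hlx hairpin, against 6.74, 6.82 and 6.90 with the control hairpin, and the groups overlapped. The difference was -0.20, with a 95% confidence interval of -0.38 to -0.02. Dkk2 differed by -0.10, Dkk3 by -0.01 and Dkk4 by 0.01.

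Sfrp1 is also known as a product of stromal cells, so stromal markers were read beside it. Of 13 stromal genes, Acta2 (0.92) and Fbln1 (0.31) were called higher on the log2 scale and 11 were not called. The share called was 15.4%, where 6.18% of all genes were called. The summed linear signal of the list was 2690 to 3075 on the arrays labelled shHLX and 2116 to 2275 on the shControl arrays. Acta2, the brightest gene of the list, weighs most in this sum, with log2 means of 10.51 (shHLX) and 9.58 (shControl). Of the 13 differences 5 were above 0 and 8 below. The collagen genes were not called, with differences of -0.10 for Col1a1, -0.06 for Col1a2 and -0.04 for Col3a1, and neither were Pdgfra (0.07) or Pdgfrb (-0.08). No marker is listed at 0, since array signals have a floor, and the lowest stromal signals were those of Lum (4.07 to 4.30). In a sorted bulk sample, more cells of a type and more RNA per cell cannot be told apart.

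**Figure D1:**
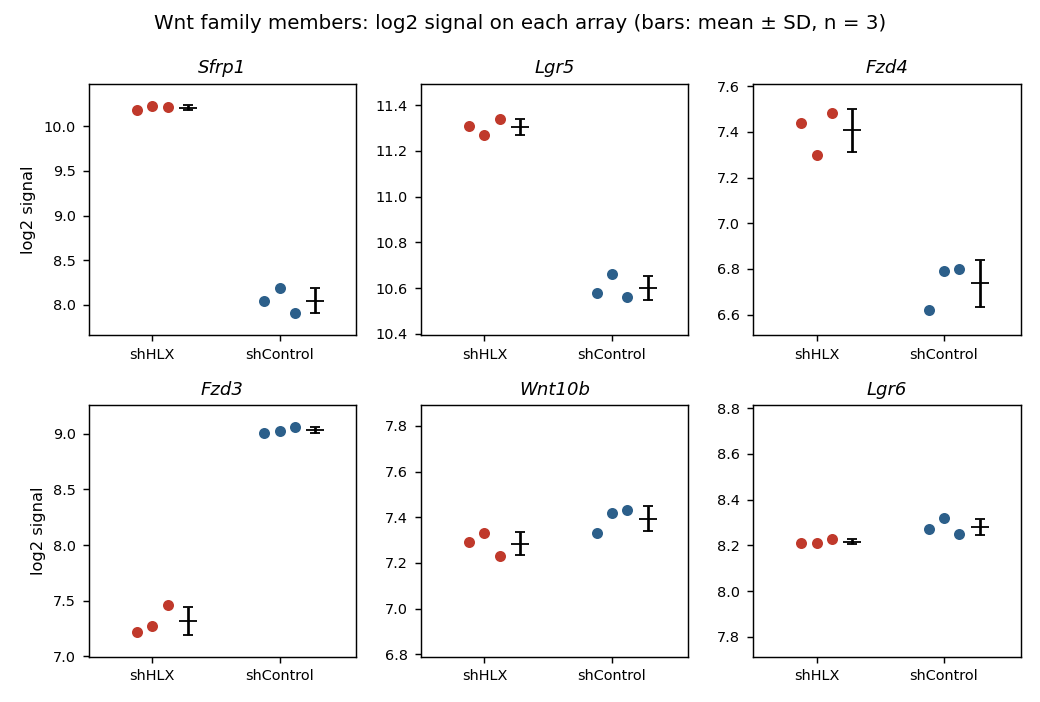
Log2 signal (vertical axis) of 6 Wnt family genes on each array, with shHLX arrays in red at the left and shControl arrays in blue at the right of each panel. Points are arrays and bars are the mean ± SD (n = 3). Each panel has its own range of at least 1 log2 unit. Sfrp1, Lgr5 and Fzd4 lie higher and Fzd3 lower on the shHLX arrays without overlap, while Wnt10b and Lgr6 are separated by 0.11 and 0.06 between the means.

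Of the 10 Frizzled genes, Fzd3 fell and Fzd4 rose. Fzd3 encodes a receptor known for planar cell polarity and for axon guidance in mouse. Its probe set (10420846, Entrez gene 14365) gave 7.22, 7.27 and 7.46 on the arrays labelled shHLX, against 9.01, 9.03 and 9.06 on the shControl arrays. The 3 control arrays spanned 0.05, and the shHLX arrays spread more widely (SD 0.127 against 0.0254) but stayed at least 1.55 below them. The mean with the Hlx hairpin was 7.32 and with the control hairpin 9.03, which is 30.5% of the control signal (95% confidence interval 27.4% to 33.9%, limma adjusted p = 7.27e-06). Fzd3 ranked 5 among all genes in size of fall, and the exact permutation p was again 0.1.

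Fzd4 encodes the receptor of the ligand norrin, best known in retinal vessels, and also binds Wnts. Its probe set (10554808, Entrez gene 14366) gave 7.44, 7.30 and 7.48 with the Hlx hairpin, against 6.62, 6.79 and 6.80 with the control hairpin. The lowest shHLX array was 0.50 above the highest control array. The means were 7.40 ± 0.0948 with the Hlx hairpin and 6.74 ± 0.0967 with the control hairpin (SD, n = 3 each), which is 1.59-fold higher (limma's 95% interval 1.42 to 1.77, adjusted p = 0.00103). The mean of Fzd4 over the 6 arrays (7.07) was below the median of all genes, so its fold may understate a change in RNA. Ndp, which encodes norrin, differed by -0.07 (limma adjusted p = 0.639) and was not called.

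The other 8 Frizzled genes were not called, and their groups overlapped. Fzd6, the closest relative of Fzd3, had signals of 6.36 to 6.69 with the Hlx hairpin and 6.50 to 6.60 with the control hairpin, a difference of -0.05 (95% confidence interval -0.24 to 0.15). Fzd7 differed by -0.01 (-0.12 to 0.10) and Fzd5 by -0.01 (-0.12 to 0.10). The remaining differences were -0.04 for Fzd1, -0.01 for Fzd2, -0.03 for Fzd8, 0.07 for Fzd9 and -0.10 for Fzd10. The interval reaching farthest from 0 among these 8 was that of Fzd8, from -0.28 to 0.22.

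The Lrp co-receptors were not called. Lrp5 gave 10.95, 11 and 10.90 on the arrays labelled shHLX, against 10.89, 10.98 and 10.94 on the shControl arrays, a difference of 0.01 (95% confidence interval -0.10 to 0.12). Lrp6 gave 9.05, 9.07 and 9.10, against 9.10, 9.05 and 9.01 in the controls, a difference of 0.02 (-0.08 to 0.12). The groups of both genes overlapped. Ratios outside 0.936 to 1.09 for Lrp5 and 0.944 to 1.09 for Lrp6 lie beyond these intervals.

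Of the Lgr receptor genes, Lgr5 rose. Lgr5 is a receptor of R-spondins that is known as a Wnt target and as a stem cell marker of the intestine. Its probe set (10372503, Entrez gene 14160) gave 11.31, 11.27 and 11.34 on the arrays labelled shHLX, against 10.58, 10.66 and 10.56 on the shControl arrays, with 0.61 between the nearest arrays of the groups. The mean signal was 1.63-fold higher (limma's 95% interval 1.51 to 1.76, adjusted p = 0.000112), and the exact permutation p was 0.1.

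Lgr4 gave 9.20, 9.23 and 9.31 with the Hlx hairpin, against 9.26, 9.17 and 9.23 with the control hairpin, a difference of 0.03 with overlapping groups. Lgr6 gave 8.21, 8.21 and 8.23, against 8.27, 8.32 and 8.25 in the controls. Its groups did not overlap, but the difference of -0.06 was not called (limma adjusted p = 0.449). Counting these, 6 of the 42 members (14.3%) had groups without overlap, where 26.2% of all genes did.

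**Figure D2:**
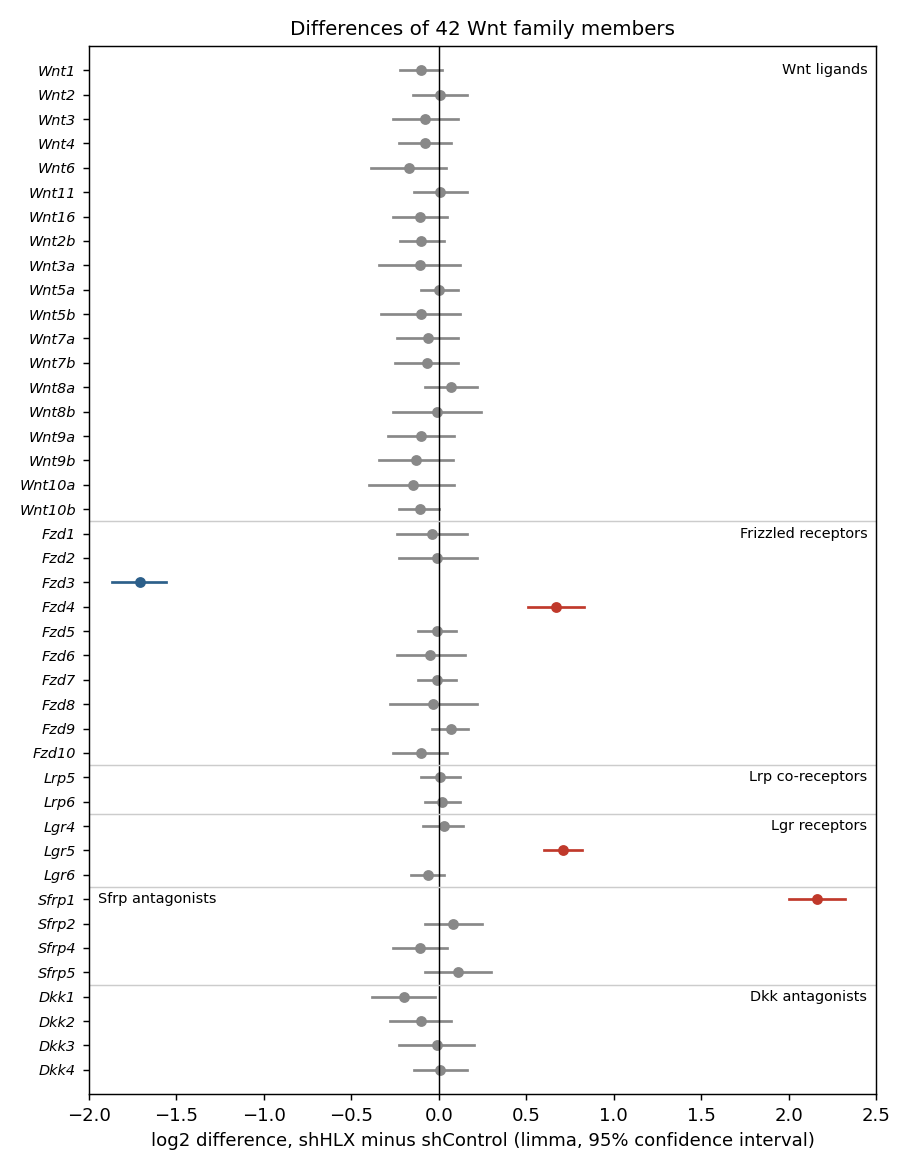
Log2 difference, shHLX minus shControl (horizontal axis), of the 42 Wnt family genes by family, with limma's 95% confidence interval. Red marks called rises, blue the called fall and grey genes that were not called. Sfrp1 (2.16), Lgr5 (0.71), Fzd4 (0.67) and Fzd3 (-1.71) stand away from 0, and the other 38 lie between -0.20 and 0.11.

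None of the 19 Wnt ligand genes was called by limma, where 6.18% of all genes were. At an unadjusted limma p under 0.05 there were 0, where 19.4% of all genes lay. Their differences ran from -0.17 for Wnt6 to 0.07 for Wnt8a. Wnt10b, a ligand known to act on blood progenitors in mouse, had groups without overlap: 7.29, 7.33 and 7.23 with the Hlx hairpin, against 7.33, 7.42 and 7.43 with the control hairpin as rounded to 2 decimals. Its difference of -0.11 had a limma adjusted p of 0.271. Without variance moderation the count of called ligands was also 0.

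The canonical ligands Wnt1 (-0.10), Wnt3 (-0.08) and Wnt3a (-0.11) and the ligands best known for beta-catenin-independent signals, Wnt5a (0.00), Wnt5b (-0.10) and Wnt11 (0.01), all had overlapping groups. Wnt5a gave 5.84, 5.92 and 5.91 with the Hlx hairpin, against 5.91, 5.85 and 5.91 with the control hairpin. Wnt4 was measured by 2 probe sets, which differed by -0.08 (the brighter, used here) and -0.14. The other ligands differed by 0.01 (Wnt2), -0.10 (Wnt2b), -0.06 (Wnt7a), -0.07 (Wnt7b), -0.01 (Wnt8b), -0.10 (Wnt9a), -0.13 (Wnt9b), -0.15 (Wnt10a) and -0.11 (Wnt16). Only 5 of the 19 had a mean signal above the median of all genes. With no detection values used here, it is unknown which ligand transcripts are above background.

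Small shifts of the ligands went mostly one way. Of the 19 differences 15 were below 0, with a median of -0.10. Among the 7471 genes with a mean signal in the range of the ligands (5.85 to 8.00), 69.5% were below 0 with a median of -0.04, and among all genes 54.6%. The lowest of the 3 shHLX arrays was shHLX 3 for 15 ligands, and the lowest of the 3 shControl arrays was shControl 1 for 14. In the same signal range shHLX 3 was lowest for 4804 genes and shControl 1 for 4594. The ligand medians were 6.84, 6.94 and 6.69 on the shHLX arrays, against 6.77, 6.97 and 6.97 on the shControl arrays, so the groups overlapped. Leaving out 1 array gave median differences from -0.13 (without shControl 1) to -0.03 (without shHLX 3), with -0.12 without shHLX 2 and -0.05 without shControl 2. The median was -0.06 after a second quantile normalization, -0.06 with array weights and -0.08 with each array centred on its median. The part of these arrays in the shift was not tested further.

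**Figure D3:**
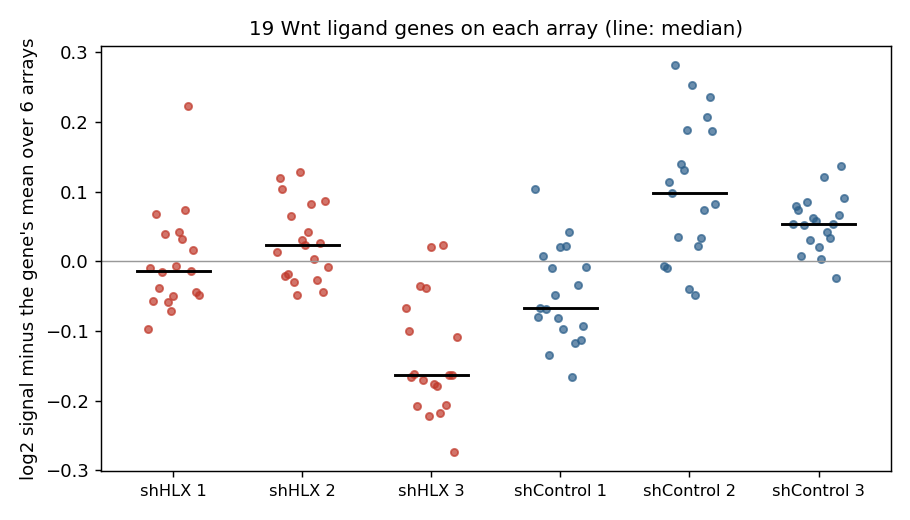
Log2 signal of 19 Wnt ligand genes on each array, minus the mean of the gene over the 6 arrays (vertical axis), with shHLX arrays in red and shControl arrays in blue. Points are genes and black lines are medians. The medians of shHLX 3 and shControl 1 lie lowest in their groups, and all points lie within 0.3 of 0.

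Position gave a few pairs to compare. In the order of RefSeq protein-coding genes, 4 pairs of ligand genes are direct neighbours: Wnt6 (-0.17) with Wnt10a (-0.15), Wnt3a (-0.11) with Wnt9a (-0.10), Wnt9b (-0.13) with Wnt3 (-0.08), and Wnt10b (-0.11) with Wnt1 (-0.10). No gene of these pairs was called. Around Fzd3, both of the nearest measured neighbours were called: Fbxo16 was lower (-0.46, limma adjusted p = 0.00226) and Extl3 higher (0.29, limma adjusted p = 0.00562). Beside Fzd4, Tmem135 was called higher (0.33, limma adjusted p = 0.0146) and Prss23 was not called (-0.06). The neighbours of Lgr5, Zfc3h1 (0.06) and Tspan8 (0.12), and those of Sfrp1, Golga7 (-0.01) and Zmat4 (-0.06), were not called. These neighbours were read after the members' values were seen.

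The rest of the pathway was read through 7 lists of other Wnt genes, with 125 genes measured. Of these 4 rose and 7 fell, or 8.8%, where 6.18% of all genes were called, and the median difference was -0.02. After a second quantile normalization the counts were 3 higher and 12 lower.

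Among 11 measured genes of other Wnt receptors and co-receptors, Ryk rose. It was the 1 call of the list (9.09%, where 6.18% of all genes were called). Ryk encodes a Wnt-binding receptor related to tyrosine kinases. It gave 7.53, 7.73 and 7.44 on the arrays labelled shHLX, against 6.48, 6.70 and 6.48 on the shControl arrays, which is 2.02-fold higher (limma's 95% interval 1.75 to 2.33, adjusted p = 0.000472). The groups were 0.74 apart at their nearest arrays. Ror1 (-0.19) and Ror2 (-0.09), receptors of Wnt5a, were not called. The list's median difference was -0.09.

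Among 18 measured secreted modulators and turnover enzymes, Rspo1 fell. It was the 1 call of the list (5.56%, where 6.18% of all genes were called). Rspo1 encodes an R-spondin, the ligand family of Lgr4, Lgr5 and Lgr6. It gave 7.81, 7.73 and 7.72 with the Hlx hairpin, against 8.41, 8.51 and 8.49 with the control hairpin, which is 60.8% of the control signal (95% confidence interval 56.1% to 65.8%, limma adjusted p = 0.000127). The groups did not overlap. Rspo2 (0.00), Rspo3 (-0.02) and Rspo4 (0.04) were not called, nor were the ligase genes Znrf3 (0.13) and Rnf43 (-0.13), the Dkk receptor gene Kremen1 (0.20, limma adjusted p = 0.136) or the Wnt inhibitor gene Wif1 (-0.18).

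Of 9 genes of Wnt secretion and release, Notum fell. It was the 1 call of the list (11.1%, where 6.18% of all genes were called). Notum encodes a secreted enzyme that removes the lipid from Wnts and is itself a Wnt target. It gave 7.70, 7.80 and 7.67 on the arrays labelled shHLX, against 8.13, 8.16 and 8.13 on the shControl arrays, or 74.8% of control (limma adjusted p = 0.00201). Porcn (0.03), which attaches the lipid, and Wls (0.09), which carries Wnts to the surface, were not called.

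The 22 genes of Dishevelled and the beta-catenin destruction complex gave 0 calls by limma, and 1 without variance moderation. At an unadjusted limma p under 0.05 there were 9 of the 22, a larger share than the 19.4% of all genes. The groups did not overlap for 50% of the list, where 26.2% of all genes did so. All genes are an unlike comparison here, since 21 of the 22 had a mean signal above the median of all genes. The list's median SD within groups was 0.04, against 0.0728 over all genes. The part of signal and spread in these counts was not tested. Ctnnb1, which encodes beta-catenin, differed by -0.03 (95% confidence interval -0.12 to 0.07). Apc, Axin1 and Gsk3b each differed by 0.08. The smallest p of the list was that of Dvl2, a Dishevelled gene, with a difference of -0.15 (limma adjusted p = 0.116). The median difference of this list was 0.07.

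Among 18 nuclear partners of beta-catenin, Tbl1x rose by 0.20 and Bcl9l fell by 0.27 on the log2 scale (limma adjusted p = 0.0394 and 0.0153). These 2 were 11.1% of the list, where 6.18% of all genes were called. Tbl1x lost its call whichever array was omitted (adjusted p from 0.0651 to 0.145). Bcl9l lost its call without shHLX 1, shHLX 2, shControl 1 or shControl 2 (adjusted p up to 0.0649). The factor genes Lef1 (-0.06), Tcf7l1 (-0.06) and Tcf7l2 (-0.02) were not called, and Tcf7 was not analysed here.

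Of 20 measured canonical Wnt target genes other than Lgr5, 0 rose and 2 fell: Notum and the adhesion receptor gene Cd44. This is 10% of the list, where 6.18% of all genes were called. Cd44 gave 8.62, 8.65 and 8.66 with the Hlx hairpin, against 8.97, 9.01 and 8.97 with the control hairpin, or 79.1% of control (limma adjusted p = 0.0026). Axin2, the target most widely used as a reporter of canonical signalling, gave a difference of -0.12 (95% confidence interval -0.24 to 0.01, limma adjusted p = 0.299). Nkd1 (-0.08), Sp5 (-0.17), Ccnd1 (-0.11) and Myc (-0.12) were not called, and the list's median was -0.07. Notum stands in both this list and that of secretion and release.

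In the planar polarity and calcium list 2 genes rose and 3 fell of 32, or 15.6%, where 6.18% of all genes were called. The polarity cadherin gene Celsr2 rose 1.31-fold (7.80, 7.84 and 7.87 with the Hlx hairpin, against 7.45, 7.44 and 7.46 with the control hairpin), while its relative Celsr1 fell (7.49, 7.51 and 7.42 against 7.86, 7.96 and 7.98). Neither gene's groups overlapped, and their changes ran opposite to each other. Plcb1, a phospholipase gene, rose 1.52-fold and Plcb2 fell to 54% of control (limma adjusted p = 0.000308 and 4.34e-05). Camk2d, which encodes a calcium-dependent kinase, gave 7.69, 7.81 and 7.93 on the arrays labelled shHLX, against 8.68, 8.43 and 8.58 on the shControl arrays (59.4% of control, limma adjusted p = 0.00137). Vangl2, a core polarity gene often studied with Fzd3, differed by 0.04 and was not called. Plcb2 and Camk2d are also general signalling genes and are not specific to Wnt.

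**Figure D4:**
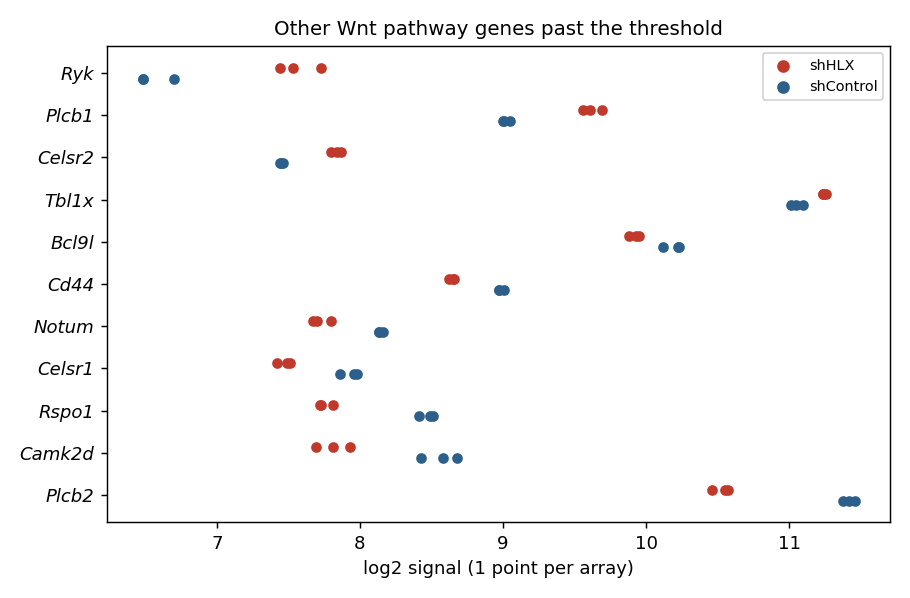
Log2 signal (horizontal axis) of the 11 called genes of the other Wnt pathway lists, 1 point per array, with shHLX arrays in red above shControl arrays in blue. Genes are ordered by their difference, from Ryk (1.01) to Plcb2 (-0.89), and the groups do not overlap for any of the 11.

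Markers of other cell types were read beside all of these results. Of 9 endothelial genes, Pecam1 rose (1.87) and Cdh5 fell (-2.68) on the log2 scale and 7 were not called. The share called was 22.2%, where 6.18% of all genes were called. The summed linear signal was 3669 to 3850 on the arrays labelled shHLX and 2267 to 2446 on the shControl arrays. Pecam1, the brightest gene of the list, weighs most in this sum, with log2 means of 11.5 (shHLX) and 9.63 (shControl). Of the 9 differences 3 were above 0 and 6 below. None of the 6 epithelial, 6 T cell, 6 B cell, 4 erythroid and 4 megakaryocyte genes measured was called by limma. With no adjustment, limma's p was under 0.05 for 2 epithelial genes, 1 erythroid gene and 0 of the others, where 19.4% of all genes lay. Without variance moderation 0 were called in these lists. The part of other cells in the Wnt gene differences was not tested.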

How the data were processed

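Total RNA of 6 samples was hybridised to Affymetrix arrays. The deposited values are log2 signals per probe set, 1 column per array. Per the submitters' processing notes the authors used RMA, which corrects background, equalises array distributions and summarises probes, and Affymetrix Power Tools 1.178. The build and the definition of the probe sets are unknown here, and no source used states them.

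Of 35556 probe sets, 21789 carried 1 gene symbol, 1621 carried several, and 12146 had no line in the annotation of the platform. Those with 1 symbol, the brightest per gene, gave 19938 genes, with no filter on dim signal. All 42 members matched RefSeq (GRCm38.p6) by Entrez identifier with unchanged symbols.

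The test was limma 3.58.1 under R 4.3.3 (functions lmFit and eBayes, no covariates, two-sided, Benjamini-Hochberg over all genes, threshold 0.05), and single genes also by an exact permutation test. The number of arrays limits the precision. Values are log2 signals, percentages of control are ratios of linear signal, and n counts arrays. The labels state no pairing by replicate number, and the main test used none. Correlations of deviations were -0.17, 0.129 and -0.152 for numbers 1, 2 and 3. With 3 arrays per group these values cannot exclude a pairing.

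Named were Sfrp1, Lgr5, Fzd3, called members, members with groups that do not overlap, and from each pathway list the called genes or else that with a low p. Any other gene named was picked with its values in view. The members and lists were chosen with earlier results of these data known. On simulated data for the 19938 genes the code found 44% of 50 genes given a log2 shift of 0.3, 94% of 50 given 0.6, 96% of 50 given 1 and 100% of 50 given 2, and called 4 of 19738 unchanged genes. Alternatives are given in the closing section. Figures were drawn with matplotlib 3.10.9.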

Additional observations from a re-analysis of the deposited data

How the results depend on the processing

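Sfrp1 (2.09 to 2.23), Fzd3 (-1.79 to -1.67) and Lgr5 (0.69 to 0.74) kept their direction and their call under all 18 alternatives, with adjusted p of at most 0.00543, 0.00674 and 0.0088. Fzd4 (0.61 to 0.72, adjusted p up to 0.035) did so under the 17 that tested it. Above the median of signal it was not tested, which left 3 called members in place of 4. These were 3 of the 14 members tested there (21.4%, where 20.7% of all genes were called). No other member was called under any alternative, and Hlx (-0.11 to -0.05) was called under none. Over all genes the count of 1233 became 2064 above the median of signal, 2261 when the variance model had an intensity trend and 800 with the replicate block, and 698 to 901 when 1 array was left out, with 766 without shHLX 1, 806 without shControl 2 and 698 without shControl 3. The 11 other pathway genes (8.8% of 125) became 23 of 81 above the median of signal (28.4%, where 20.7% of all genes were called). They became 23 with the intensity trend (18.4% against 11.3%) and 17 with array weights (13.6% against 8.44%). At an adjusted p under 0.10 there were 17 (13.6% against 9.05%). When 1 array was left out there were 9 to 11 (7.2% to 8.8%, against 3.5% to 4.52%). With the replicate block the members called stayed at 4, the same genes, and the pathway genes at 9, with Bcl9l (adjusted p = 0.0607) and Tbl1x (0.125) not called. No array's deviations correlated best with its own number, and the highest correlation was 0.344, between shHLX 3 and shControl 1. Bcl9l was also lost without variance moderation (0.0532) and Tbl1x after a second quantile normalization (0.053). The cause of these moves was not tested. Dim signal limits many members: 14 of the 42 had a mean above the median of all genes, among them 5 of 19 ligands, 1 of 4 Sfrp genes and 0 of 4 Dkk genes.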
